A study of Arabidopsis thaliana with 12 samples.

Results

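4 nuclear genes of Arabidopsis thaliana, AT5G52940, AT2G18193, DR4 (AT1G73330) and NPF5.16 (AT1G22550), were followed through 12 leaf RNA-seq libraries. They were taken out of 32743 counted genes because they were among those higher in otp90 than in WT plants in the libraries named Mito, and because they belong to neither the copper nor the respiration genes. They were chosen by the measured difference of otp90 and WT in Mito, so those values are given below as a description without a test. The otp90 plants carry an insertion in OTP90 (AT1G25360), which encodes a pentatricopeptide repeat protein for RNA editing in organelles, and the WT plants are Col-0. All plants were 35 days old, vegetative, untreated and grown in long days in a Percival chamber, and leaves were sampled. RNA from each genotype was sequenced as 3 libraries named Mito and 3 named Total, which gives the groups Mito otp90, Mito WT, Total otp90 and Total WT. The mutant is a single insertion line, the labels do not say how the Mito extract was made, and nothing says whether a Mito and a Total library of the same number came from the same plants.

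The libraries held 24660745 to 30706658 counts in Mito otp90, 27611023 to 32418348 in Mito WT, 56800553 to 60464017 in Total otp90 and 49434596 to 52443538 in Total WT. Levels are given as CPM, read counts scaled to library size, on a single TMM scale for the 12 libraries, TMM being the edgeR scaling that corrects for library composition. The leaf label was set beside 5 photosynthesis genes, whose summed level came to 14710 to 16190 CPM in Mito otp90 and 14720 to 15480 in Mito WT. In Total it came to 22750 to 27670 in otp90 and 20950 to 29650 in WT, so every Mito library was lower. High levels of these genes do not show that leaf alone was sampled. OTP90 itself had 17, 6 and 9 counts in Mito otp90, against 16, 17 and 20 in Mito WT, and 6, 10 and 7 in Total otp90, against 8, 16 and 6 in Total WT. A count over the whole gene does not separate the parts before and after the insertion, so it does not check the genotype labels.

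In plants, faults in mitochondrial gene expression or respiration are signalled back to the nucleus, where membrane-bound NAC transcription factors raise a set of nuclear genes that includes the alternative oxidase AOX1A. Many of the promoters of that set carry the mitochondrial dysfunction motif, to which these factors bind. The 4 genes have different roles. AT5G52940 encodes a protein with the domain of unknown function DUF295, a family with many tandem copies in Arabidopsis. AT2G18193 encodes an AAA-ATPase of the BCS1-like group, named after the yeast protein that completes respiratory complex III. DR4 (drought-repressed 4) belongs to the Kunitz family of protease inhibitors. NPF5.16 is a transporter of the NRT1/PTR family that moves nitrate across the vacuolar membrane.

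The promoters are shown first, because the mitochondrial dysfunction motif is a sequence feature of many, though not all, of the known stress genes. The motif was searched on both strands in the 250 bases before and 50 bases after each annotated start, as CTTG and CAAG with any 5 bases between them, and as CTTG and CACG with any 5 bases between them. The sequence and annotation are those of RefSeq TAIR10.1, and all 4 genes had the same span there as in the count tables. Of the 4 windows, 1 held a match, that of AT2G18193, where the match began 90 bases before the start. Its 250 bases before the start (chr2:7919346-7919595, minus strand, motif in capitals) are:
AT2G18193: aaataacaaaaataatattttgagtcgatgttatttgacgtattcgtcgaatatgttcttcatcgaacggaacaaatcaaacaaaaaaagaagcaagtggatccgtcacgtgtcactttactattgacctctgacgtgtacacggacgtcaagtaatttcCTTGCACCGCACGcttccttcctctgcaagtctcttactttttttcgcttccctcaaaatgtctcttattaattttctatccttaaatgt

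The same motif with 8 bases on each side, capitals marking the motif, is set beside those of the genes of a list of 11 responders to mitochondrial dysfunction that held a match:
AT2G18193: gtaatttcCTTGCACCGCACGcttccttc
AOX1A: tcttccatCTTGCTCTCCAAGaaaaatct
UPOX: tttagtaaCTTGCTCTCCAAGgagatcta
HSP23.5: ttattttaCTTGGAGACCACGcagttcta
AT5G09570: gcaagaaaCGTGACGGGCAAGgggaatat
AT2G04050: tatacgaaCTTGGTCCCCAAGtatatttc
AT2G41730: attaatatCTTGCTGGACAAGcatttttg
The match of AT2G18193 (chr2:7919415-7919443, minus strand) is of the form with CACG, as are that of HSP23.5 (chr5:20891045-20891073, plus strand), that of AT5G09570 and a match of AOX1A that is not shown. The others lie at chr3:7906537-7906565 (AOX1A), chr2:9254319-9254347 (UPOX), chr5:2970503-2970531 (AT5G09570) and chr2:17409353-17409381 (AT2G41730) on the plus strand, and at chr2:1339604-1339632 (AT2G04050) on the minus strand of TAIR10.1. The match of AT5G09570 runs as the reverse complement on the strand of the gene. AT2G04050 also held another match that is not shown. At least 1 form was present in 6 of the 11 promoters of the list and in 1.42% of 27443 promoters of protein-coding genes. Many promoters of such responders were already known to carry the motif, so this is a description and no test. The windows of AT5G52940, DR4 and NPF5.16 held neither form. A search for GTAC, the core bound by the copper regulator SPL7, found a match in all 4 windows, and so did 10702 of the 27443 promoters. ACGTG, the core of the abscisic acid response element, was present in the windows of AT2G18193 and NPF5.16 and in 26.7% of all promoters. A match is a run of letters and does not show that a factor binds there.

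AT5G52940 had the highest ratio of otp90 to WT among the 4 in Mito, and every otp90 library was above every WT library in Total too. It is a gene of 1 exon on chromosome 5 (21472103 to 21473602, plus strand) with 1089 coding bases for 362 residues, and the counts cover 1500 exonic bases, untranslated parts included. It had 55, 42 and 45 counts in Mito otp90, against 10, 9 and 6 in Mito WT. In Total it had 38, 32 and 27 counts in otp90, against 15, 3 and 9 in WT. The groups did not overlap in either preparation, and the lowest of the 12 was a Total WT library. On the CPM scale the means were 1.47 ± 0.240 in Mito otp90 and 0.223 ± 0.047 in Mito WT, and 0.664 ± 0.112 in Total otp90 and 0.206 ± 0.140 in Total WT (SD, n = 3 for each). In bulk leaf RNA, a change in the number of cells that express a gene and a change in RNA per cell cannot be told apart. In Total, the contrast that did not choose the gene, the log2 fold change was 1.69 (SE 0.529, 95% interval 0.47 to 2.91), with an unadjusted p of 0.0123 and a Benjamini-Hochberg adjusted p of 0.974 over 25010 genes (edgeR, quasi-likelihood). The exact permutation test gave p = 0.1, the smallest that 3 against 3 libraries allow.

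The neighbour of AT5G52940 is a second DUF295 gene, AT5G52930, which lies 241 bases before it on the same strand. AT5G52930 had 53, 43 and 50 counts in Mito otp90, against 43, 57 and 33 in Mito WT. It had 61, 56 and 49 counts in Total otp90, against 31, 15 and 38 in Total WT. The Mito groups overlapped and the Total groups did not. By edgeR's quasi-likelihood test it passed in neither preparation. Its log2 fold change was 0.33 in Mito, with SE 0.219 and an adjusted p of 0.801, and 0.83 in Total, with SE 0.383 and an adjusted p of 0.974. No stretch of 75 bases, the read length, in the exons of AT5G52940 occurs elsewhere in the genome, so reads of the pair are not shared. Unlike the window of AT5G52940, that of AT5G52930 holds the motif, 56 bases before its start (chr5:21470235-21470263, plus strand):
AT5G52930: tccaaagaCTTGGTGGGCACGgtgatacc

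Part of the DUF295 family was not detected in these leaves, with 35 of 68 other genes at 0 in Mito otp90, 34 in Mito WT, 33 in Total otp90 and 36 in Total WT. Of these 68, 10 passed the filter on low counts in Mito, with a median log2 fold change of 0.11 beside -0.004 for all genes, and 0 of them passed the test, beside 0.0604% of all genes. In the fit without a filter 39 were tested in Mito and 2 passed as higher in otp90, where 0.377% of all genes passed and 0.313% passed as higher. AT5G54450 had 13, 12 and 7 counts in Mito otp90 and 0 in the Mito WT libraries (adjusted p 0.00712), and AT5G54560 had 11, 9 and 5 counts in Mito otp90, against 0, 1 and 0 in Mito WT (adjusted p 0.0351, edgeR quasi-likelihood). Both had at most 4 counts in any Total library. In Total 0 of 38 passed, beside 0.0% of all genes. At least 1 form of the motif was present in 13 of the 68 promoters, which belong to 1 family and are not independent of each other.

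AT2G18193 was higher in otp90 in Mito, while its genotypes overlapped in Total. It is a gene of 2 exons on chromosome 2 (7917413 to 7919345, minus strand) with 1488 coding bases for 495 residues. It had 47, 50 and 46 counts in Mito otp90, against 18, 19 and 16 in Mito WT, a wide gap between the groups. In Total it had 14, 11 and 29 counts in otp90, against 16, 29 and 11 in WT, and the groups overlapped throughout. The means were 1.48 ± 0.153 CPM in Mito otp90 and 0.475 ± 0.020 in Mito WT, and 0.376 ± 0.218 in Total otp90 and 0.408 ± 0.172 CPM in Total WT (SD, n = 3 for each). The log2 fold change in Total was -0.13 (SE 0.497, 95% interval -1.27 to 1.02, adjusted p 0.996, edgeR quasi-likelihood), and the exact permutation test gave p = 0.8. Its sign turned when Total WT replicate 2 was left out (0.25), or Total otp90 replicate 1 (0.03) or 2 (0.15). The interval includes 0 and ends below the Mito log2 fold change of 1.61 (SE 0.193), the value that chose the gene.

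The tandem neighbour AT2G18190, which encodes a protein of the same group, lies 1540 bases away on the same strand. Of the 1709 stretches of 75 bases in the exons of AT2G18193, 15 also occur in AT2G18190, and a read that maps to both was counted for both. AT2G18190 had 3 counts in Mito otp90 and 2 in Mito WT, summed over 3 libraries each, and 1 in Total otp90 and 0 in Total WT, so few reads were shared. Of 23 other BCS1-like genes in the tables, 10 passed the filter in Mito and 6 in Total, and 0 passed the test in either, beside 0.0604% of all genes in Mito and 0.0% in Total. With so few calls among all genes, these counts do not set the group apart. Their median log2 fold change was -0.18 in Mito and -0.56 in Total, where the replicates of this group varied widely. OM66, the most abundant of them and a protein of the outer mitochondrial membrane, averaged 18.6 ± 1.90 CPM in Mito otp90 and 20.7 ± 3.00 CPM in Mito WT (SD, n = 3), with a log2 fold change of -0.16 (SE 0.118, adjusted p 0.814, edgeR quasi-likelihood). AT3G28540 and AT5G17760, the next most abundant, had log2 fold changes of -0.04 (SE 0.149) and -0.37 (SE 0.153) in Mito.

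DR4 was present in Mito libraries and nearly absent from Total libraries. It is a gene of 1 exon on chromosome 1 (27568714 to 27569823, minus strand) with 630 coding bases for 209 residues. It had 171, 218 and 164 counts in Mito otp90, against 110, 119 and 92 in Mito WT. In Total it had 0, 0 and 9 counts in otp90, against 0, 0 and 1 in WT. The Mito groups did not overlap, while in Total 4 of 6 libraries were at 0 and 9 of the 10 counts fell in Total otp90 replicate 3. A level of 3 counts corresponds to 0.0496 to 0.0607 CPM in a Total library, and intervals and floors of this kind cover counting error only. The means were 5.67 ± 0.635 CPM in Mito otp90 and 2.87 ± 0.242 CPM in Mito WT (SD, n = 3 for each). From the summed counts, the level in Mito otp90 was 91.8 times that in Total otp90 (95% exact binomial interval 48.0 to 201.8). The corresponding ratio in WT was 387 with an interval of 68.9 to 15320, since its denominator is a single count.

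The genotype difference of DR4 could therefore not be resolved in Total. The ratio of summed Total counts, otp90 over WT, was 8.28 with an exact binomial interval of 1.15 to 363 for counting error alone. Between replicates the spread was larger, with a log2 fold change of 2.69 (SE 2.12, 95% interval -2.21 to 7.58, adjusted p 0.974, edgeR quasi-likelihood) and p = 1.0 in the exact permutation test. Without Total otp90 replicate 3 the log2 fold change was -1.93, from 0 counts in otp90 and 1 in WT.

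Markers of other organs were looked at beside DR4. PYK10, a beta-glucosidase of endoplasmic reticulum bodies that is abundant in roots, followed the same pattern between preparations. It had 1249, 1419 and 1140 counts in Mito otp90, against 1250, 991 and 849 in Mito WT, and 3, 9 and 40 counts in Total otp90, against 2, 1 and 2 in Total WT. As for DR4, the highest Total library was Total otp90 replicate 3. In Mito the log2 fold change of PYK10 was 0.49 (SE 0.112, adjusted p 0.221, edgeR quasi-likelihood), and with the replicate number as a block it was 0.50 (adjusted p 0.0152). In the fit without a filter the adjusted p of PYK10 was 0.0423 (edgeR quasi-likelihood). The other 3 root markers did not follow it. The aquaporin gene TIP2;3 and the beta-glucosidase gene BGLU21 had at most 1 count in any of the 12 libraries, and PIP2;4 had 13, 11 and 12 counts in Mito otp90, against 17, 24 and 8 in Mito WT. The summed level of the 4 root markers came to 36.6 to 41.3 CPM in Mito otp90, 24.4 to 33.3 in Mito WT, 0.625 to 1.35 in Total otp90 and 0.479 to 1.34 in Total WT. In Mito nearly all of this sum was PYK10, with means of 39.1 CPM in otp90 and 27.6 in WT, beside summed means of 39.4 and 28.1. PIP2;4 averaged 0.37 CPM in Mito otp90 and 0.43 in Mito WT, and 0.71 in Total otp90 and 0.84 in Total WT. The 4 flower markers summed to 0.55 to 0.86 CPM in Mito otp90, against 1.17 to 1.62 in Mito WT, and the 4 senescence markers to 7.58 to 12.2 CPM in Mito otp90, against 10.3 to 14.8 in Mito WT. With the filter and no block, 0 flower markers and 3 senescence markers were tested in Mito, and 0 passed, beside 0.0604% of all genes. Without the filter all 8 genes were tested and 0 passed, beside 0.377% of all genes. With the replicate block SEN1 passed as lower in Mito otp90, where 0.471% of all genes did so, and its log2 fold change was -0.73 with an edgeR adjusted p of 0.0215. The part of root material or of any other tissue in the DR4 result was not tested.

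**Figure D1:**
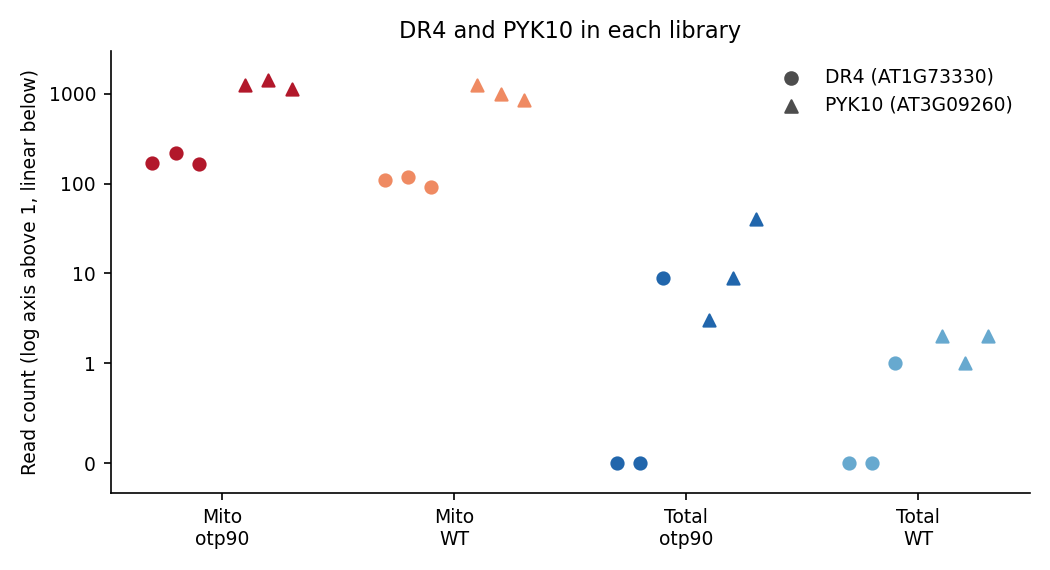
Read counts of DR4 (circles) and of PYK10 (triangles), a gene of the root marker list, in each library, by group, on a log axis above 1 and a linear axis below. Both genes are high in the 6 Mito libraries and at 0 to 40 counts in the 6 Total libraries, where Total otp90 replicate 3 is the highest for each. The other root markers, not drawn, did not follow PYK10.

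The other genes of the Kunitz family were examined next. Of 6 other Kunitz inhibitor genes, 2 passed the filter in Mito and 1 in Total, and 0 passed the test, beside 0.0604% of all genes in Mito and 0.0% in Total. The nearest, AT1G73325, lies 432 bases from DR4 on the same strand and had 23 counts in Mito otp90 and 28 in Mito WT, summed over 3 libraries each. AT1G17860, the most abundant of the family, averaged 1.79 ± 0.214 CPM in Mito otp90 and 2.05 ± 0.335 CPM in Mito WT (SD, n = 3), and the log2 fold change was -0.19 (SE 0.174). Since DR4 is named for its fall under drought, 6 genes that respond to drought or abscisic acid were examined. In Mito 4 were tested, 0 passed against the same 0.0604% of all genes, and their median log2 fold change was -0.37. With the replicate block RD29A passed as lower in otp90 (log2 fold change -0.34, SE 0.074, adjusted p 0.0365, edgeR quasi-likelihood), where 0.471% of all genes did so. In Total 4 were tested and 0 passed, beside 0.0% of all genes, with a median of -0.20.

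Of the 4 genes, NPF5.16 had the most similar and the most precise estimates of the log2 fold change in Mito and Total. It is a gene of 4 exons on chromosome 1 (7966500 to 7968692, minus strand) with 1695 coding bases for 564 residues, and it lies 925688 bases from OTP90 on that chromosome. It had 198, 224 and 176 counts in Mito otp90, against 137, 111 and 112 in Mito WT. In Total it had 201, 225 and 160 counts in otp90, against 86, 96 and 88 in WT. No otp90 library overlapped with a WT library in either preparation. The means were 6.13 ± 0.340 CPM in Mito otp90 and 3.23 ± 0.353 in Mito WT, and 3.998 ± 0.493 in Total otp90 and 2.01 ± 0.072 CPM in Total WT (SD, n = 3 for each). The log2 fold change in Total was 0.99 (SE 0.149, 95% interval 0.63 to 1.34), beside 0.91 (SE 0.113) in Mito, the contrast that chose it. By unadjusted p (0.000332) it ranked number 3 of 15373 genes in Total, but the adjusted p was 0.9996 by edgeR's quasi-likelihood test. No gene had a smaller adjusted p in that fit. The common dispersion, edgeR's measure of spread between replicates, was 0.0516 in Total and 0.0090 in Mito. The exact permutation test gave its smallest possible p, 0.1. The call depended on the tool and the filter. With the filter, the adjusted p was 0.0171 with edgeR's likelihood ratio test and 0.0088 with DESeq2. It was 0.0374 in a single edgeR quasi-likelihood fit of all 12 libraries. Without the filter it was 0.0674 with the likelihood ratio test, 0.0179 with DESeq2 and 0.0268 in the fit of all 12 libraries. That fit takes its spread in part from the Mito libraries, which chose the gene.

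The relatives of NPF5.16 include its neighbours. NPF5.10, which lies 63 bases away on the other strand, had 415 counts in Mito otp90 and 542 in Mito WT, and 522 in Total otp90 and 428 in Total WT, summed over 3 libraries each. Its log2 fold change was -0.20 (SE 0.127) in Mito and 0.16 (SE 0.292) in Total. NPF5.15, on the other side, had values of -0.40 (SE 0.298) and 0.53 (SE 0.545). Of the 15 other NPF5 genes, 10 were tested in Mito and 7 in Total, with median log2 fold changes of -0.04 and 0.17, and 0 passed in either, where 0.0604% of all genes passed in Mito and 0.0% in Total. NPF5.11, the most abundant and itself a vacuolar nitrate transporter, averaged 10.3 ± 1.23 CPM in Mito otp90 and 10.4 ± 0.061 in Mito WT, and 13.8 ± 1.53 in Total otp90 and 12.2 ± 2.89 CPM in Total WT (SD, n = 3). Of 10 genes of nitrate uptake and assimilation, 9 were tested in each preparation and 0 passed, beside the same shares of all genes. Their median log2 fold changes were -0.07 in Mito and 0.08 in Total. The nitrate reductase gene NIA2, the most abundant of these, had log2 fold changes of -0.08 (SE 0.0998) in Mito and 0.08 (SE 0.133) in Total.

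**Figure D2:**
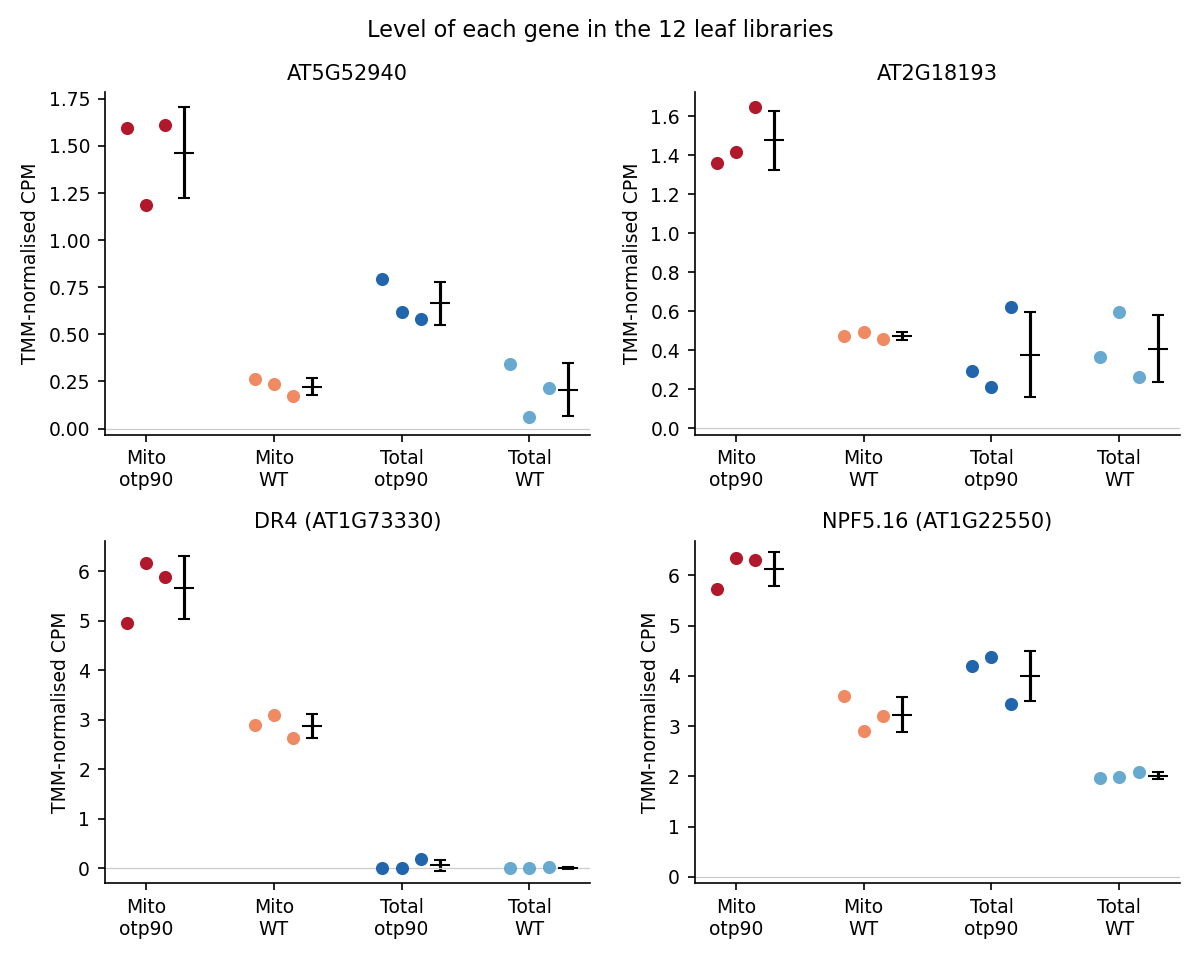
Level of each of the 4 genes in the 12 libraries in TMM-normalised CPM, by group (points, libraries; bars, mean ± SD of 3). AT5G52940 and NPF5.16 are higher in otp90 in Mito and in Total, AT2G18193 overlaps between genotypes in Total, and DR4 lies at or near 0 in Total.

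The agreement of the preparations can now be put together. In Mito, where the genes were chosen, 4 of 4 passed and had no overlap between genotypes, beside 0.0604% of 16570 tested genes that passed, 0.0422% that passed as higher and 6.64% of genes with a count that had no overlap. Their log2 fold changes there were 2.68 (SE 0.262) for AT5G52940, 1.61 (SE 0.193) for AT2G18193, 0.97 (SE 0.121) for DR4 and 0.91 (SE 0.113) for NPF5.16. The adjusted p that chose them ran from 0.00882 to 0.026. The last gene inside the threshold was the mitochondrial gene ATMG00830.1 (0.0394) and the first outside it was YSL2 (0.0551), a metal-nicotianamine transporter. AT5G52940 and AT2G18193 were above 1 CPM only in otp90 libraries, so they entered the Mito test through the group in which they are high. In Total, which played no part in the choice, 1 of 4 passed the filter on low counts and 0 of 4 passed the test in the fits with or without the filter, beside 0.0% of all genes. In the filtered Total fit 458 genes had an unadjusted p under 0.05, and DESeq2 called 18. The otp90 libraries were all above the WT libraries in Total for 2 of 4, AT5G52940 and NPF5.16, beside 4.32% of genes with a count.

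**Figure D3:**
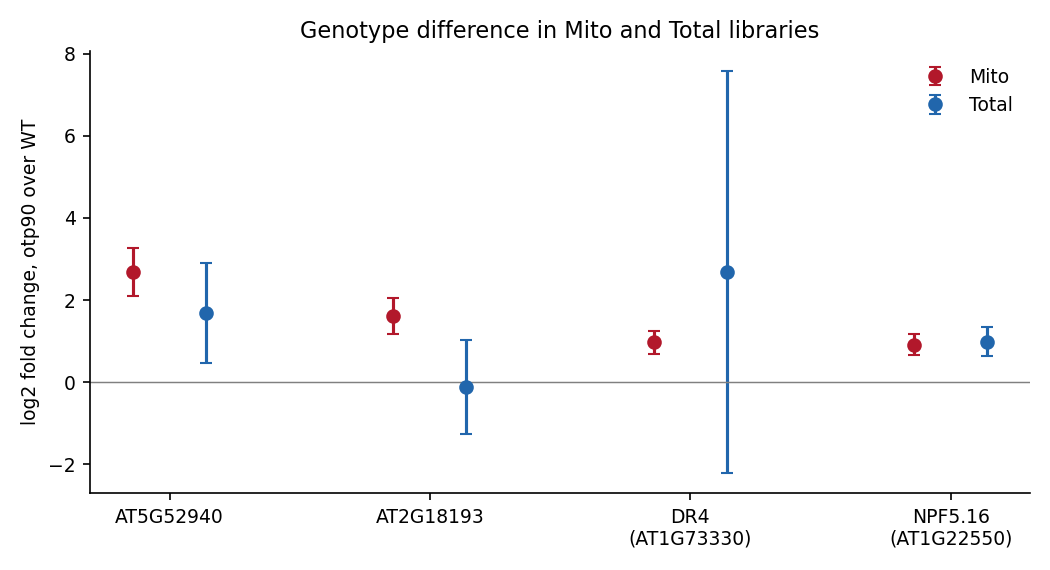
Log2 fold change of otp90 over WT for each gene in Mito (red) and in Total (blue), with 95% intervals of the edgeR fit. The Mito contrast chose the genes, so the Mito values and intervals are a description and no test. In Total, AT5G52940, AT2G18193 and DR4 were under the filter on low counts, and their values come from the fit without a filter. The other values come from the filtered fits. The Total interval lies above 0 for AT5G52940 and NPF5.16, spans 0 for AT2G18193 and is widest for DR4, which had 10 counts in the 6 Total libraries.

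The difference between the genotype effects, Mito minus Total, is given without a test because it uses the Mito values. On the log2 scale it was 0.99 (SE 0.589) for AT5G52940, 1.75 (SE 0.530) for AT2G18193, -1.66 (SE 1.80) for DR4 and -0.08 (SE 0.190) for NPF5.16. The levels in the preparations themselves differed too. In otp90 the log2 difference of Mito and Total was 1.12 for AT5G52940, 1.96 for AT2G18193, 6.44 for DR4 and 0.60 for NPF5.16. In WT it was 0.12 for AT5G52940, 0.20 for AT2G18193, 8.09 for DR4 and 0.67 for NPF5.16. These values are relative to the bulk of genes, since scaling by library size alone moved the median of all genes from 0.02 to 0.50 in otp90 and to 0.51 in WT, and it turned none of the 8 signs. Per kilobase of exon, DR4 and NPF5.16 had the highest levels of the 4 in Mito otp90, 5.104 ± 0.572 and 3.15 ± 0.175 CPM per kb. AT5G52940 (0.976 ± 0.160) and AT2G18193 (0.794 ± 0.082) followed with libraries that overlapped (SD, n = 3 for each). In Total WT the order was NPF5.16 (1.03 ± 0.037), AT2G18193 (0.220 ± 0.093), AT5G52940 (0.137 ± 0.094) and DR4 (0.007 ± 0.012), where the values of AT2G18193 and AT5G52940 again overlapped.

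Among the genes tested in both preparations, those most like each of the 4 were found by Pearson's r of log2(CPM + 0.5) over the 12 libraries, centred on the mean of each preparation. For AT5G52940 they were GMI1, a gene induced by DNA damage (r = 0.956), the mitochondrial gene ATMG00270.1 (0.929) and the phytosulfokine receptor gene PSKR2 (0.903). For NPF5.16 they were YSL2 (r = 0.948), GMI1 (0.943) and ATMG00270.1 (0.939). For AT2G18193 they were AT2G35790 (r = 0.926), LETM1 (0.876) and a histone gene, AT5G65360 (0.864). For DR4 they were DNMT2 (r = 0.900), AT1G56350 (0.863) and AT5G39940 (0.855). Between the 4 genes themselves r ran from 0.516 for AT2G18193 and NPF5.16 to 0.913 for AT2G18193 and DR4. GMI1, not one of the 4, also passed the Mito test that chose them (log2 fold change 0.98, edgeR quasi-likelihood adjusted p 0.0223). YSL2 was the first gene outside the threshold of that test. All these r values share the same 12 libraries and the Mito difference that chose the genes, and are a description only.

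Genes known to answer mitochondrial dysfunction were compared with the 4, since the window of AT2G18193 holds the motif found in 6 of the 11 promoters of their list. Of the list of 11, 4 passed the filter on low counts in Mito and 0 of these passed the test, beside 0.0604% of all genes, with a median log2 fold change of 0.56. With the replicate block 3 of 4 passed as higher in otp90, where 0.863% of all genes did. These were AOX1A (log2 fold change 0.61, adjusted p 0.00158), the NAC transcription factor gene NAC13 (0.50, adjusted p 0.0457) and AT2G41730 (0.91, adjusted p 0.047, edgeR quasi-likelihood). In the Mito fit without a filter 11 were tested and 5 passed as higher: AOX1A, NDB4, HSP23.5, AT5G09570 and AT2G04050. AT2G32020 and OM66 had log2 fold changes below 0 there, -1.35 (SE 0.762) and -0.17 (SE 0.106), and the rest had values above 0. AT2G32020 had few counts, 3, 1 and 1 in Mito otp90, against 4, 5 and 6 in Mito WT. In that fit 0.313% of all genes passed as higher. The transporter gene AT2G04050 of the MATE family had 21, 25 and 11 counts in Mito otp90, against 3, 1 and 4 in Mito WT (adjusted p 0.0073). In Total, 3 passed the filter, 11 were tested without it, and 0 passed in either fit, beside 0.0% of all genes in each. For 5 of 11 every otp90 library was above every WT library there, beside 4.32% of all genes with a count. AT5G09570 had 27, 62 and 52 counts in Total otp90, against 1, 0 and 0 in Total WT (adjusted p 0.524, edgeR quasi-likelihood). UPOX, a gene raised by oxidative stress, had 35, 64 and 30 counts in Total otp90, against 24, 20 and 12 in Total WT. HSP23.5 overlapped, with 10, 17 and 20 counts in Total otp90, against 7, 25 and 9 in Total WT. The log2 fold change in Total was -0.66 (SE 0.784) for OM66, -0.02 (SE 0.238) for NAC13 and -0.07 (SE 0.547) for AT5G14730 in the fit without a filter.

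**Figure D4:**
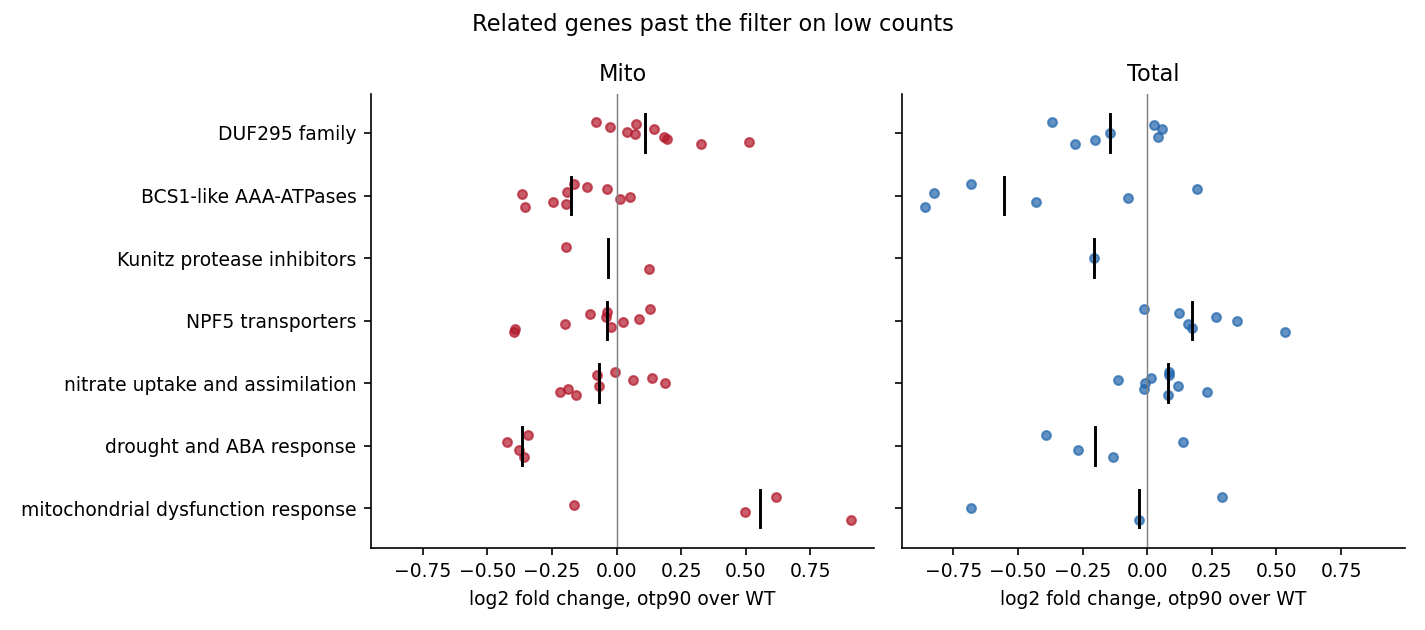
Log2 fold change of otp90 over WT for the genes of each list that passed the filter on low counts, in Mito (left) and Total (right); each point is a gene and the black bar is the list's median. The medians lie between -0.37 and 0.56 in Mito and between -0.56 and 0.17 in Total. Of these genes 0 passed the test in either preparation, beside 0.0604% of all genes in Mito and 0.0% in Total.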

How the data were processed

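RNA of 12 leaf libraries was sequenced (stranded, depleted of ribosomal RNA, single-end reads). The authors aligned reads with STAR to Ensembl Genomes TAIR10 with the Col-0 mitochondrial chromosome and without opening introns, so reads across exon junctions can be lost from genes with several exons. The deposited values are raw read counts per gene, made with featureCounts 1.6.3 over exons, with strand setting 2 and with multi-mapping reads counted. 2 of the 4 genes have 1 exon and are not affected by the missing junction reads.

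Counts were analysed in R 4.3.3 with edgeR 4.0.16 (TMM, glmQLFit, glmQLFTest), in the 6 libraries of each preparation, on genes that exceeded 1 CPM in 3 or more libraries, with Benjamini-Hochberg adjustment over all genes and a threshold of 0.05. Genes under that filter take their value from the fit without a filter, in which every gene with a count was tested. SE is the unshrunk log2 coefficient over the square root of F. The code was tested on simulated data. DESeq2 1.42.0 was an alternative. Exact permutation tests (scipy 1.17.1) were two-sided on log2(CPM + 0.5). Replicate libraries differed by more than sampling noise (chi-square per degree of freedom 12.4 to 104.0). The labels do not say whether replicates are separate plants, although the series text calls them biological.

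Same-numbered libraries deviated together in Mito (correlations 0.413, 0.401 and 0.102 across genes, each above 0.1) and not in Total (0.273, -0.386 and -0.374). Libraries of unlike number were not compared, so these values alone do not show that the number pairs the Mito libraries. The replicate block is therefore given as an alternative to the main test, which used no block. With the block 221 genes passed in Mito, against 10 without it.

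The members and lists were chosen with earlier results of these data known. Named besides the members were list genes that passed or were the 3 most abundant of their list, DUF295 genes, the 2 nearest genes on each side, genes sharing 75-base stretches and the 3 most alike genes. All 32548 nuclear identifiers matched RefSeq TAIR10.1.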

Additional observations from a re-analysis of the deposited data

How the results depend on the processing

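In Total, 0 genes passed under 6 of 9 other settings and in every fit that left out 1 library, while the likelihood ratio test called 11, DESeq2 18 and the fit of all 12 libraries 3. In the filtered fits of these 3 settings NPF5.16 passed, with log2 fold changes of 0.99, 0.99 and 0.99. Without the filter it did not pass in the likelihood ratio test. No other member passed in Total under any setting run. Without 1 library at a time, the Total log2 fold change ran from 0.91 to 1.08 for NPF5.16, from 1.25 to 2.27 for AT5G52940, from -0.70 to 0.25 for AT2G18193 and from -1.93 to 4.64 for DR4.

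In Mito, 10 genes passed, against 95 without a filter, 22 with RLE factors, 221 with the replicate block, 151 with the likelihood ratio test, 105 with DESeq2 and 1 in the fit of all 12 libraries. Leaving out 1 library gave 2 to 64 genes, with 64 without Mito WT replicate 3. With a filter of 1 CPM in all 6 libraries AT5G52940 and AT2G18193 were not tested. Otherwise the 4 members passed with all 6 Mito libraries under each setting run except the fit of all 12 libraries, where the adjusted p was 0.118, 0.324, 0.9999 and 0.0725 (AT5G52940, AT2G18193, DR4, NPF5.16). In the filtered fits that left out 1 library, the 4 passed without Mito WT replicate 3 and lost their call without Mito WT replicate 1 or 2. Without an otp90 library, DR4 and NPF5.16 lost theirs and AT5G52940 and AT2G18193 fell under the filter. In the fits without a filter the 4 passed whichever library was left out. All these Mito fits reuse the libraries that chose the 4 genes. They describe how the choice depends on the settings and are no independent support for it. The log2 fold changes of DR4 and NPF5.16 stayed between 0.83 and 1.05 in the filtered fits.

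In Total the replicate block changed no call of a member, with log2 fold changes of 1.83 for AT5G52940, -0.19 for AT2G18193, 2.51 for DR4 and 0.98 for NPF5.16, and exact p of 0.25, 0.75, 1.0 and 0.25 over pairs, where 0.25 is the smallest possible. Pseudocounts of 0.1 and 1 turned no sign.

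Scaling by library size alone, added after seeing the data, gave differences of Mito and Total of 1.604 for AT5G52940, 2.44 for AT2G18193 and 1.08 for NPF5.16 in otp90, and of 0.66 for AT2G18193 and 1.16 for NPF5.16 in WT. Without centring on the preparation, r turned negative for AT2G18193 with AT2G35790 (-0.16) and for DR4 with DNMT2 (-0.32), AT1G56350 (-0.19) and AT5G39940 (-0.080). Low counts limit what Total can show of AT5G52940, AT2G18193 and DR4. For AT2G18193 the Total 95% interval still ended at 1.02, below its Mito log2 fold change of 1.61, the value that chose it.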

Other observations

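DR4 was not alone in being present in Mito and nearly absent from Total. A rule that was chosen after the values of DR4 were seen, at least 50 counts in each of the 6 Mito libraries and at most 3 in at least 5 of the 6 Total libraries, found 14 genes, DR4 included. They include genes of the shoot apex and of anthocyanin synthesis. STM, the homeobox gene that maintains the shoot meristem, had 65, 76 and 63 counts in Mito otp90, against 62, 75 and 84 in Mito WT, and 0 in the 6 Total libraries. CYP78A5, a cytochrome P450 gene active at the shoot apex, had 104, 111 and 71 counts in Mito otp90, against 100, 101 and 101 in Mito WT, and also 0 in the 6 Total libraries. DFR and LDOX of anthocyanin synthesis were on the list, with 134, 230 and 144 counts of DFR in Mito otp90, against 161, 149 and 145 in Mito WT, and 3, 3 and 5 in Total otp90, against 2, 1 and 1 in Total WT. These genes are described as found, and no test was made of the set.

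Of the 14 genes, 1 passed in the Mito comparison of genotypes without the replicate block, DR4, for which that contrast was the choice. With the block 3 passed, DR4, JAL22 and FTM1, where 0.863% of all genes passed as higher and 0.471% as lower. The jacalin-related lectin gene JAL22 had 170, 174 and 131 counts in Mito otp90, against 141, 124 and 112 in Mito WT, a log2 fold change of 0.51 (SE 0.108, edgeR adjusted p 0.171, and 0.033 with the block). FTM1, a stearoyl-ACP desaturase gene, had 74, 81 and 52 counts in Mito otp90, against 109, 146 and 140 in Mito WT, a log2 fold change of -0.76 (SE 0.158, edgeR adjusted p 0.171, and 0.0201 with the block). In Total otp90 replicate 3, JAL22 and the P450 gene CYP81F4 each had 9 counts, the same number as DR4 in that library, against 0 or 1 in each of the other 5 Total libraries. The labels give leaf as the tissue of all 12 libraries. Whether the Mito and Total extracts were made from the same parts of the plant was not tested.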
